A study of Bos taurus with 10 samples.

Results

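The sites described here were cytosines outside the CG context that were followed, on their own strand, by adenine and then cytosine, written CAC below. They belong to the CHH context, in which H stands for any base other than guanine. A site was taken when at least 8 reads covered it in each of 10 bovine tissues, and sites at 50 % methylation or more in every tissue were dropped. Of 59090 CHH sites covered in all 10 tissues, 6012 were CAC sites, 15 of these were dropped, and 5997 were kept. The 10 tissues shared 152300 cytosines in all contexts, out of 1868049 covered in at least 1 tissue, and 100262 CAC sites were covered in at least 1 tissue. The sites compared with them were the CHH sites followed by adenine and then adenine or thymine (CAA and CAT), of which 3914 were kept, 2070 CAA and 1844 CAT. A second comparison used the 48711 CHH sites whose next base was thymine or cytosine.

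Reduced representation bisulphite sequencing (RRBS), which cuts DNA at CCGG with MspI and reads the fragment ends after bisulphite has turned unmethylated cytosine into uracil, was applied to tissues of the Hereford cow L1 Dominette and relatives. The adult female tissues were skeletal muscle taken near a caesarian site, intercaruncular uterus, nucleated blood cells and mammary gland at day 90 of lactation. The juvenile female tissues were frontal cortex, mammary gland parenchyma, abomasum and ileum, the testis came from an adult male, and the rumen from a male fetus. Each tissue was 1 library with no replicate and no treatment, and sex, stage and animal cannot be told apart from tissue. The difference between 2 tissues is therefore a difference between 2 libraries, and the tests over tissues below measure the spread between the 10 libraries. The same CHH sites were read in every library, so these tests take the sites as given and do not cover the spread between sites. No marker of a cell type was read in these data, so the tissue names are those of the labels.

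In mammals, most cytosine methylation lies at CG, where DNMT1 copies it to the daughter strand at each cell division. Methylation outside CG has no such copying and is laid down afresh by the de novo enzymes, chiefly DNMT3A in neurons. In the brain it builds up after birth and is most frequent at CAC. Most other adult tissues of the mammals studied carry little of it.

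The 5 CAC sites at which frontal cortex exceeded the highest other tissue by most, among members with at least 20 reads in frontal cortex, are printed first because frontal cortex led the other tissues most there. They were chosen after their values were seen. Each is written 5′ to 3′ on the strand of the site, on build UMD3.1, with the CAC in capitals, and was joined from the overlapping five-base records of neighbouring cytosines in the deposited files.
chr9:104125546-104125570, forward strand: ggcagccccgctCACcaccgccctt
chr12:34515849-34515873, reverse strand: gccccgctcctcCACtgggcgcccc
chr25:34141535-34141559, reverse strand: acagccgccgctCACcacctgtgcc
chr16:81553726-81553746, reverse strand: tctgcggtcgcaCACaccggc
chr3:120396950-120396974, reverse strand: acgctctcaggcCACtcggccaccc

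The members lay on both strands, 2817 on the forward and 3180 on the reverse, and 5679 (94.7 %) lay on the numbered autosomes. Another 141 lay on the X chromosome and 177 on a sequence that the files name chr_defined, which carries no chromosome number. Chromosome 4 held the most, 354. The median distance to the nearest covered CCGG was 16 bp and 931 members lay within 4 bp of one. Members were not independent of each other, because 3994 (66.6 %) had another member within 49 bp and so could share reads with it. Their position relative to genes was not analysed here.

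Depth differed between libraries. The reads summed over all covered cytosines ranged from 16125651 in abomasum to 40089443 in testis, and the median coverage of a member was 15 reads in abomasum and 33 to 48 in the other tissues. At such coverage a member with 1 methylated read can already stand at several percent, so that the level of a single site was coarse and most results below rest on means over many sites. All confidence intervals are Wilson 95 % intervals, which cover counting error only, since copies made by PCR were not told apart. The study reported incomplete bisulphite conversion in its libraries, so that levels outside CG could be overestimated, and asked for caution with them. The levels below were not corrected for this, and its part in the differences between tissues was not tested.

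Most members were nearly unmethylated. In total 5422 (90.4 %) were below 10 % in every tissue and 439 (7.32 %) had no methylated read in any tissue, whereas 353 (5.89 %) had a methylated read in each. At the other end, 26 members were at 10 % or more in every tissue and 43 reached 50 % in some tissue without doing so in all. Among CAA and CAT sites, 3602 (92.0 %) were below 10 % in every tissue and 457 (11.7 %) had no methylated read, and 38 reached 50 % in some tissue.

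The mean methylation level of the 5997 CAC sites was 1.62 % in frontal cortex, 1.60 % in skeletal muscle, 1.57 % in ileum, 1.48 % in nucleated blood cells, 1.43 % in rumen, 1.42 % in uterus, 1.36 % in lactating mammary gland, 1.35 % in abomasum, 1.28 % in mammary gland parenchyma and 1.26 % in testis. Frontal cortex was the highest of the 10 by a margin over skeletal muscle that was far below the spread over the 9 other tissues, whose mean was 1.42 % ± 0.117 (SD, n = 9). An exact permutation test of frontal cortex against the 9 others, two-sided, gave p = 0.1, which is the smallest that 1 library against 9 can give. The order depended on how sites were weighted. With all reads of the members pooled, so that deeply covered sites counted more, frontal cortex stood at 1.63 % (interval 1.60 to 1.66 %), above 3 of 9 tissues, and nucleated blood cells at 1.84 % (1.81 to 1.88 %).

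The levels of the compared sites had another order. CAA and CAT sites together averaged 1.37 % in frontal cortex, where only testis was lower, and 1.48 % ± 0.139 (SD, n = 9) in the other tissues. The mean over all 10 tissues was 1.24 % at CAA and 1.73 % at CAT, so that CAC, at 1.44 % ± 0.128 (SD, n = 10), fell between the sites with which it was compared. Sites followed by thymine or cytosine averaged 0.749 % ± 0.0516 (SD, n = 10). In frontal cortex they stood at 0.706 %, below the mean of the 9 other tissues, 0.753 % ± 0.0524 (SD). Frontal cortex was thus not the highest tissue at either group of compared sites. Sites followed by adenine and then guanine (CAG) were at 1.07 % there, inside the range of 0.981 to 1.20 % over the 10 tissues.

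**Figure D1:**
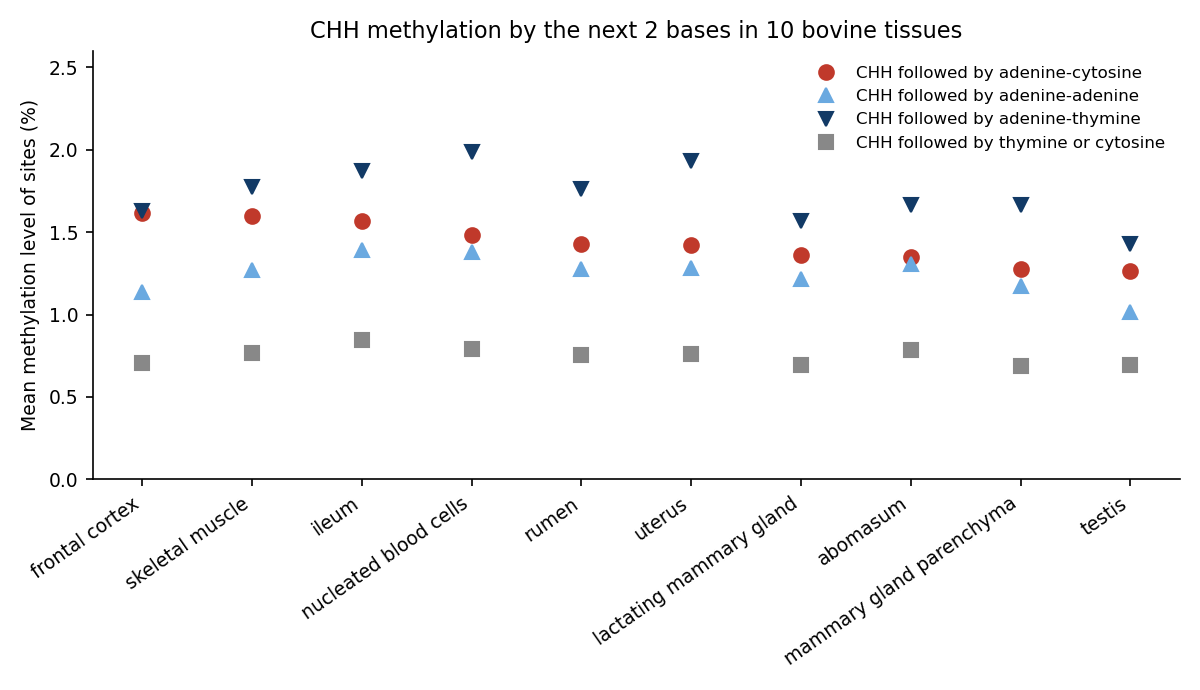
Mean methylation level (%) of CHH sites by the 2 bases that follow, for each of 10 tissues, 1 library each, ordered by the level at sites followed by adenine-cytosine. Those sites (circles) lay from 1.26 to 1.62 %, above sites followed by thymine or cytosine (squares) in all 10 tissues, and in frontal cortex they nearly met the sites followed by adenine-thymine.

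The level at CAC exceeded that at sites followed by thymine or cytosine in 10 of 10 tissues. The difference averaged 0.687 ± 0.111 percentage points (SD, n = 10) and ranged from 0.567 in abomasum to 0.912 in frontal cortex. The exact sign-flip permutation test over the 10 tissues, two-sided, gave p = 0.00195 (Benjamini-Hochberg adjusted p = 0.00391 over 6 such tests), the smallest p that 10 tissues allow. The size of the difference rested on the drop of sites at 50 % or more in every tissue, which removed 424 sites followed by thymine or cytosine and 15 CAC sites. With no site dropped it was 0.107 points, positive in 9 of 10 tissues (exact permutation p = 0.00586).

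No such difference was found between CAC and the pooled CAA and CAT sites. It averaged -0.0355 ± 0.135 percentage points (SD, n = 10) with 3 positive values among 10 tissues (p = 0.418 by the same exact permutation test, adjusted p = 0.447). Frontal cortex had the largest, 0.252 points, skeletal muscle 0.0923 and testis 0.0527, and in the other tissues it lay between -0.185 in nucleated blood cells and -0.0211 in lactating mammary gland. Frontal cortex exceeded the mean of the 9 others by 0.320 points and was above 9 of 9 (exact permutation test, p = 0.1). With at least 20 reads in every tissue this was 0.0935 points, above 6 of 9 (exact permutation p = 0.8), or 0.0686 points, above 7 of 9, when sites at 50 % or more in any tissue were dropped as well. Against CAA alone the difference was positive in 10 of 10 tissues (0.193 points, exact permutation p = 0.00195), and against CAT alone it was negative in 10 of 10 (-0.292 points, exact permutation p = 0.00195). Frontal cortex had the highest value of both, 0.483 points against CAA and -0.00687 against CAT. These results over the 10 tissues also depended on the few highly methylated sites. Without sites at 50 % or more in any tissue, the difference from the pooled CAA and CAT sites was 0.121 points (9 of 10 tissues positive, exact permutation p = 0.00391). The difference from CAT alone was then -0.0507 points, with 3 positive values among 10 tissues (exact permutation p = 0.221). That from CAA alone was 0.274 points, positive in 10 of 10.

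The share of members with a methylated read depends on depth, so it was also computed as the mean chance of seeing one among exactly 8 reads drawn from each site. It was then 9.85 % in frontal cortex and 9.93 % in skeletal muscle, 9.39 % in ileum, and 7.59 to 8.92 % in the remaining tissues. At CAA and CAT sites it was 7.23 % in frontal cortex, above 3 of 9 tissues, and 6.78 to 8.49 % elsewhere. Frontal cortex and skeletal muscle were thus the pair with the highest share at CAC.

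The members were then grouped by the methylation of the CG sites around them. For each member and tissue the mean level of CG sites within 50 bp was taken in the same library. This grouping did not enter the choice of members, whereas the comparison of frontal cortex with the 9 others within its classes was added after the data had been seen. In frontal cortex 1169 members lay near CG at 80 % or more and 1953 near CG at 20 % or less. In the other tissues 938 to 2812 members lay near highly methylated CG.

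Near CG at 80 % or more, the mean CAC level was 2.67 % in frontal cortex, 2.04 % in skeletal muscle, 1.83 % in ileum, 1.79 % in rumen and 1.62 % in testis. It was 1.59 % in mammary gland parenchyma, 1.58 % in nucleated blood cells, 1.56 % in lactating mammary gland, 1.52 % in uterus and 1.49 % in abomasum. Frontal cortex lay 1.0 percentage points above the mean of the 9 others, which was 1.67 % ± 0.179 (SD, n = 9), and above 9 of 9 (exact permutation test, p = 0.1, the smallest possible, adjusted p = 0.125 over 5 tests). Pooling the reads kept it highest, at 2.06 % (interval 1.95 to 2.18 %), followed by nucleated blood cells at 1.84 % (1.80 to 1.88 %).

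Near CG at 20 % or less no tissue reached 1 %. Frontal cortex stood at 0.941 %, above 5 of 9 tissues, and the 9 others averaged 0.907 % ± 0.0648 (SD, n = 9), from 0.791 % in testis to 0.974 % in skeletal muscle. The difference between frontal cortex and the mean of the 9 others was 0.0335 points (exact permutation test, p = 0.8).

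The CAC level was higher near methylated than near unmethylated CG in 10 of 10 tissues, by 0.860 ± 0.339 percentage points (SD, n = 10; exact sign-flip permutation test, p = 0.00195, adjusted p = 0.00391). The difference was 1.73 points in frontal cortex, 1.06 in skeletal muscle and 0.576 to 0.875 in the rest. CAA and CAT sites had a difference of the same sign in 10 of 10 tissues, 0.742 ± 0.154 points (exact permutation p = 0.00195). With each site weighted equally, the dependence on nearby CG was thus not tied to CAC. The excess of CAC over CAA and CAT in this respect, 0.118 points, was not distinguishable from 0 (exact permutation p = 0.447). With reads pooled, CAC stayed higher near methylated CG in every tissue. The pooled CAA and CAT level was instead lower there in skeletal muscle, frontal cortex (0.850 against 2.08 %), abomasum and rumen, and higher in the other tissues.

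At CAA and CAT sites near CG at 80 % or more, frontal cortex stood at 1.47 %, inside the range of the 9 other tissues of 1.28 to 1.63 %. At sites followed by thymine or cytosine near such CG it stood at 0.759 %, likewise inside the range of 0.618 to 0.862 %. CAG sites, which belong to the CHG context, were at 1.35 % in frontal cortex and 0.995 to 1.28 % in the others. Frontal cortex was thus the highest of the 10 tissues at these sites as well as at CAC. The CAC level near such CG minus the CAA and CAT level was thus 1.20 points in frontal cortex, 0.701 in skeletal muscle, 0.389 in ileum, 0.345 in rumen, 0.313 in mammary gland parenchyma and 0.133 in testis, and it was between -0.0948 and -0.00860 in the other 4. Frontal cortex exceeded the mean of the 9 others by 1.02 points (9 of 9, exact permutation p = 0.1), while over all 10 tissues the difference was 0.284 points (6 of 10 positive, exact permutation p = 0.0469, adjusted p = 0.0703).

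**Figure D2:**
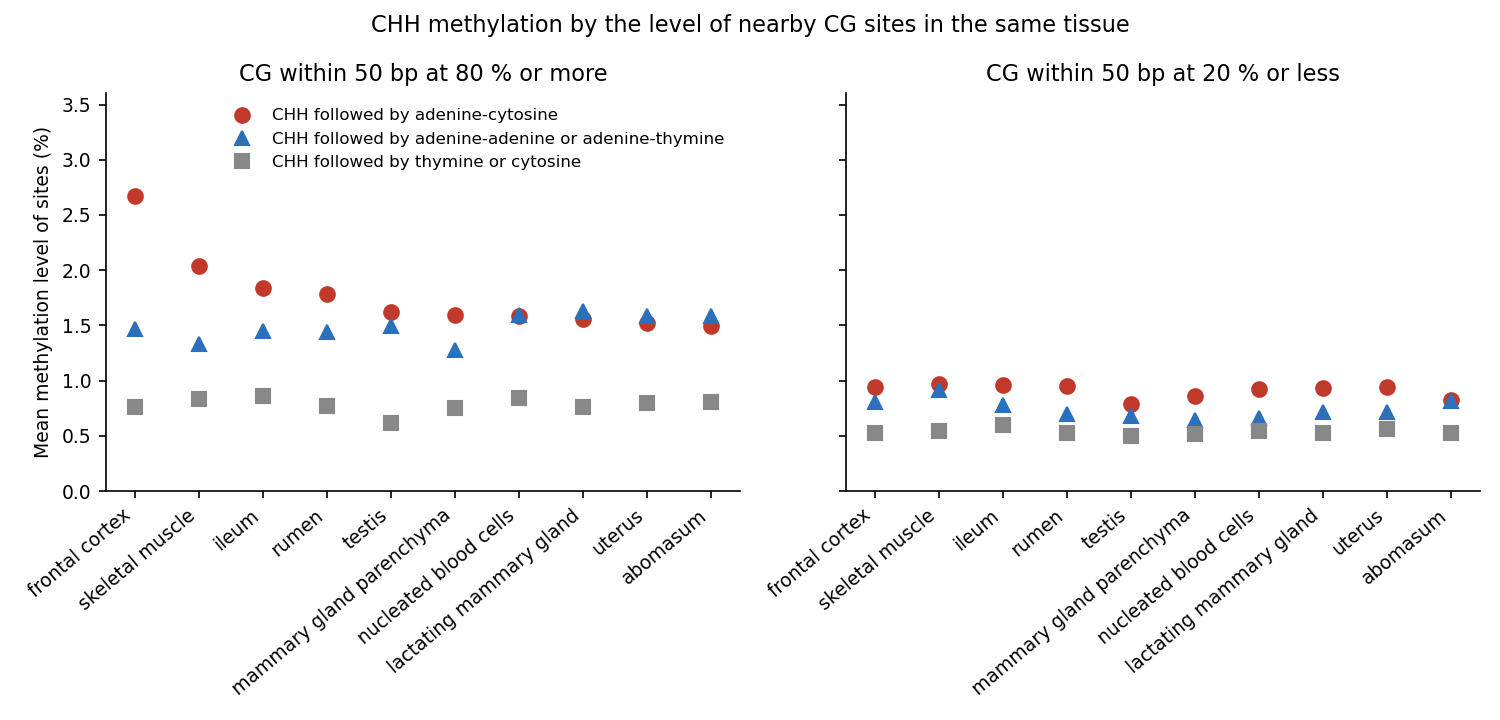
Mean methylation level (%) of CHH sites near CG at 80 % or more (left) and at 20 % or less (right), the CG level being the mean within 50 bp in the same library, for 10 tissues with 1 library each. On the left the circles (followed by adenine-cytosine) fall from 2.67 % in frontal cortex to 1.49 % in abomasum while the triangles and squares show no cortex peak, and on the right all tissues lie below 1 %.

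The members near highly methylated CG were not the same sites in each tissue, so the comparison was repeated on the 511 members that lay near CG at 80 % or more in all 10 tissues. The mean CAC level at these was 3.05 % in frontal cortex and 1.63 to 2.25 % in the other tissues. Without the sites at 50 % or more in any tissue, 505 members remained, at 2.37 % in frontal cortex and 0.995 to 1.71 % elsewhere. The CAA and CAT sites of that kind, 211 in number, were at 1.10 % in frontal cortex and 0.636 to 1.06 % elsewhere.

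The cortex value depended on which members met a higher read minimum. Among the 1659 members with at least 20 reads in every tissue, 132 lay near CG at 80 % or more in frontal cortex, and their level was 1.37 %, inside the range of the 9 others of 0.992 to 1.54 %. In that set the CAC level near methylated CG was also lower than near unmethylated CG in 10 of 10 tissues, by a mean difference of -0.600 points (exact permutation p = 0.00195). Since the members had their lowest median coverage in abomasum, a minimum of 20 reads in the 9 other tissues alone was tried as well. This kept 3647 members. Near CG at 80 % or more frontal cortex then stood at 2.19 % (648 sites) and the others at 1.21 to 1.60 %, and the difference between methylated and unmethylated surroundings was 0.604 points, positive in 10 of 10 tissues (exact permutation p = 0.00195). The sites deeply covered in abomasum thus carried another pattern from the rest, and the part of read depth in it was not tested.

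The share of members at 10 % or more near CG at 80 % or more was 5.47 % in frontal cortex, 64 of 1169. It was 4.47 % in abomasum, where the median coverage at these sites was only 13 reads, 3.56 % in skeletal muscle, and 1.66 to 2.45 % in the remaining tissues. Near CG at 20 % or less it was 0.819 % in frontal cortex, 3.32 % in abomasum, and 0.379 to 0.762 % in the others.

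The level also differed with the bases ahead of the CAC. The base just before the site was cytosine in 41.7 % of members, guanine in 33.2 %, thymine in 12.6 % and adenine in 12.5 %. Near CG at 80 % or more, frontal cortex stood at 3.14 % after guanine, 2.94 % after thymine, 2.38 % after cytosine and 2.06 % after adenine. The highest of the 9 other tissues reached 2.64 % after guanine, 1.82 % after thymine, 1.86 % after cytosine and 1.51 % after adenine, so frontal cortex was above all 9 in each of the 4 classes. Without sites at 50 % or more in any tissue, frontal cortex was at 2.07 % after guanine and 2.36 % after thymine. It was then at 2.19 % after cytosine and 2.06 % after adenine, above all 9 in each class. Guanine was thus no longer the highest class. Taking both preceding bases, with those sites kept, frontal cortex was above all 9 in 9 of 16 classes. The widest of these were tgCAC, 4.02 % in frontal cortex against at most 2.44 % elsewhere (50 sites near such CG in frontal cortex), ctCAC, 3.92 % against at most 2.35 % (56 sites), and caCAC, 3.28 % against at most 1.81 % (51 sites). It was not above all 9 in ggCAC, where it stood at 3.33 % and the highest other tissue at 3.74 %, nor in agCAC, at 2.57 % against 3.07 %. These are levels of small classes and carry no test.

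Single sites were then counted by the tissue that led them. Of the 5302 members with at least 20 reads in frontal cortex, 19 (0.358 %) were higher there than in every other tissue by 10 percentage points or more, and 15 of the 19 lay near CG at 80 % or more in frontal cortex. By the same rule abomasum led 5 of the 2467 members with that many reads in it (0.203 %), skeletal muscle 10 of 5326 (0.188 %), testis 8 of 4871 (0.164 %) and lactating mammary gland 8 of 5345 (0.15 %). The other 5 tissues led 0 to 4 members each, at most 0.0744 %. Among CAA and CAT sites frontal cortex led 0 of 3416, and the other tissues led 1 to 9 sites each. With at least 20 reads required in the 9 tissues other than abomasum, frontal cortex led 9 of 3647 members and abomasum, with its lower minimum of 8 reads, 30. With at least 20 in every tissue frontal cortex led 1 of 1659, testis 4, lactating mammary gland 3 and abomasum 2, so that frontal cortex no longer led the most. The counts also depended on the size of the lead. With 20 reads in the leading tissue and a lead of 5 points, frontal cortex led 67 members (1.26 %) and skeletal muscle 52 (0.976 %). At CAA and CAT sites frontal cortex then led 15 (0.439 %), inside the range of the other tissues of 0.343 to 0.949 %. These rules were set after the data had been seen, and shallow sites in the other tissues enter them, so the counts are descriptions.

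**Figure D3:**
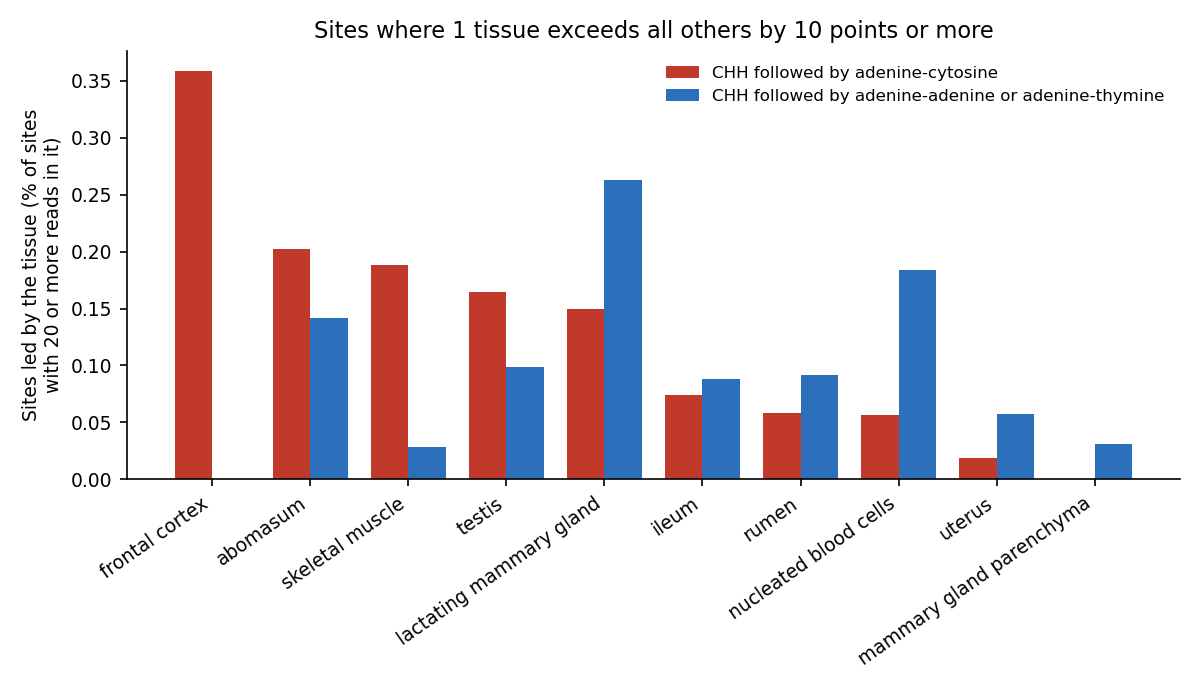
Share (%) of sites whose level in 1 tissue exceeded all 9 others by 10 percentage points or more, out of the sites with 20 or more reads in that tissue, with 1 library per tissue. Frontal cortex led 0.358 % of sites followed by adenine-cytosine and none of those followed by adenine-adenine or adenine-thymine. With a lead of 5 points, which is not drawn, these shares were 1.26 and 0.439 %.

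At the 5 sites printed above, frontal cortex had 10 methylated of 23 reads on chromosome 9 (43.5 %), 10 of 29 on chromosome 12 (34.5 %), 11 of 33 on chromosome 25 (33.3 %), 5 of 26 on chromosome 16 (19.2 %) and 7 of 31 on chromosome 3 (22.6 %). The next tissue on chromosome 9 was rumen with 5 of 25 reads (20 %), and the other 8 tissues had at most 7.41 %. On chromosome 12 the next was lactating mammary gland with 4 of 35 reads (11.4 %), and on chromosome 25 skeletal muscle with 3 of 22 (13.6 %).

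On chromosome 16 no methylated read was seen in the 9 other tissues, at 12 to 45 reads each. On chromosome 3 the next tissue was testis with 1 of 18 reads (5.56 %), and 5 tissues had no methylated read. All 5 sites lay near highly methylated CG, which in frontal cortex averaged 97.9, 88.5, 97.0, 96.5 and 82.4 % in the order printed. At these depths the intervals were wide, and in abomasum the 5 sites had only 8 to 14 reads.

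**Figure D4:**
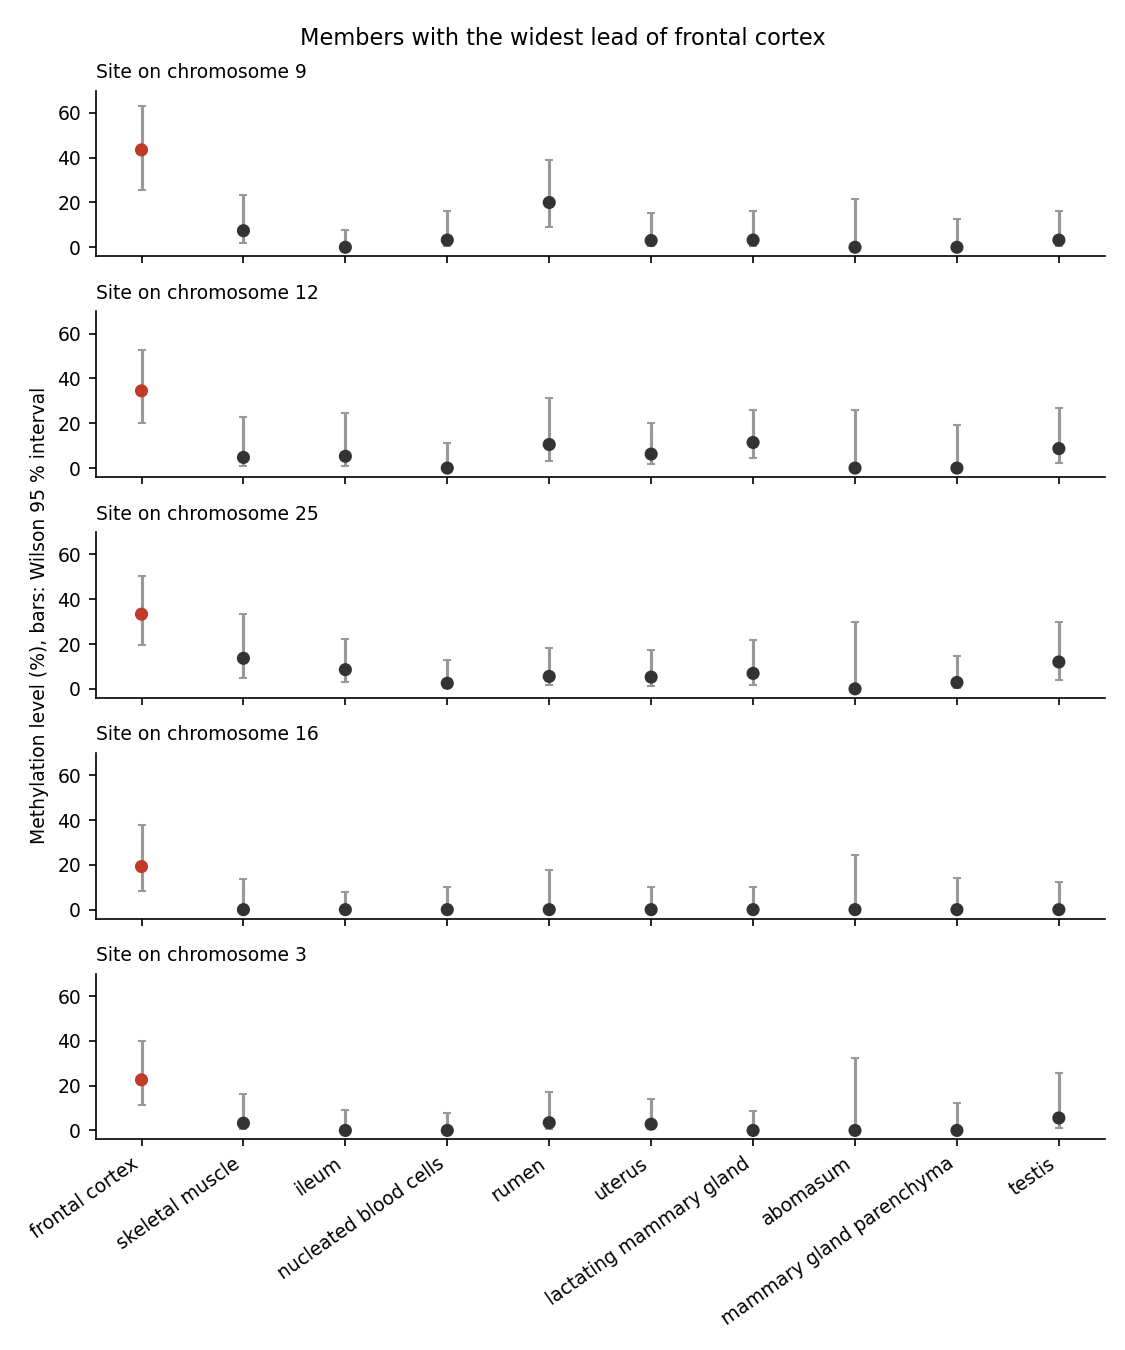
Methylation level (%) in each of 10 tissues, 1 library each, at the 5 members with the widest lead of frontal cortex (red) over the highest other tissue among members with 20 or more reads in frontal cortex. Bars are Wilson 95 % intervals. The levels in frontal cortex ran from 19.2 to 43.5 %, and the highest elsewhere was 20 %, in rumen on chromosome 9.

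Requiring at least 20 reads in every tissue gave smaller leads. The widest was at chr26:17972430 on the reverse strand, where frontal cortex had 16 of 47 reads methylated (34.0 %) and nucleated blood cells, the next tissue, 9 of 39 (23.1 %), with 4.55 to 20.8 % elsewhere. The lead there was 11.0 points, but the intervals of frontal cortex (22.2 to 48.3 %) and nucleated blood cells (12.6 to 38.3 %) overlapped. The next 4 sites by this rule, on chromosomes 17, 9, 1 and 13, had leads of 3.66 to 4.95 points that rested on 2 or 3 methylated reads each.

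Differences at single sites were tested between libraries with Fisher's exact test on methylated and unmethylated reads for each of the 45 pairs of tissues. A site was called at a Benjamini-Hochberg adjusted p below 0.01 within the pair and a difference of at least 25 percentage points, over all 152300 cytosines. As with the intervals, the test counts each read as a separate molecule, so its p-values cover counting error only. By this rule 44 of the 5997 CAC members differed in at least 1 pair (0.734 %), beside 7.24 % of all cytosines, 0.643 % of all CHH sites and 1.23 % of the CAA and CAT sites. The share was thus close to that of the CHH context as a whole. Frontal cortex was called higher than at least 1 tissue at 15 members, 0.25 % beside 1.61 % of all cytosines and 0.186 % of CHH sites. It was called lower at 11 members, 0.183 % beside 1.92 % of all cytosines and 0.213 % of CHH sites. It differed from all 9 other tissues at 0 members. In simulated data only 35 % of sites raised by 60 points in frontal cortex were called apart from all 9. The simulated sites were drawn from cytosines of all contexts, so the reach of the calls at CAC members was not measured. Of the 5 sites printed above only the one on chromosome 9 was called, in 2 pairs. The rule asks for a difference of 25 points, and 90.4 % of the members stayed below 10 % in every tissue.

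There were 6 members at which 1 tissue was called apart from all 9 others, none of them frontal cortex. Such sites were not particular to CAC. Among the 3914 CAA and CAT sites, testis was called higher than all 9 at 1 and lower at 2. Lactating mammary gland was called higher at 1 and lower at 1, and abomasum higher at 1. The 6 CAC members are printed because a single library stands apart at each, and they were picked out after their values were seen.
chr7:105905418-105905433, forward strand: ggctcggcataCACaa
chr8:112820528-112820547, forward strand: aagccctcacggCACagctg
chr10:77828346-77828363, reverse strand: tccggCACcccctccctc
chr12:34527107-34527131, reverse strand: gcccgccagctcCACgcaggcgccc
chr13:82996464-82996488, reverse strand: ggcggcagtcagCACcagccctgag
chr25:32367394-32367418, reverse strand: aaacctatcttcCACcatccatcct

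The site on chromosome 7 was at 86.8 % in lactating mammary gland (33 of 38 reads), at 25 % in testis and at 4 to 8.37 % in the other tissues. That on chromosome 12 was at 48.2 % in testis (27 of 56 reads) and had 1 methylated read in the 9 other tissues, in nucleated blood cells. The site on chromosome 10 was methylated in 37 of 37 reads in abomasum and at 31.6 to 61.5 % elsewhere. Each of these 3 members was thus higher in 1 library.

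The remaining 3 were lower in 1 library. The site on chromosome 8 had 0 of 50 reads methylated in testis and 85.2 to 100 % in the other tissues. The site on chromosome 13 had 1 of 29 reads methylated in rumen (3.45 %), and the others lay between 50 % in nucleated blood cells and 95.5 % in frontal cortex. The site on chromosome 25 was at 15.5 % in lactating mammary gland (17 of 110 reads) and at 41.8 to 91.0 % elsewhere.

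**Figure D5:**
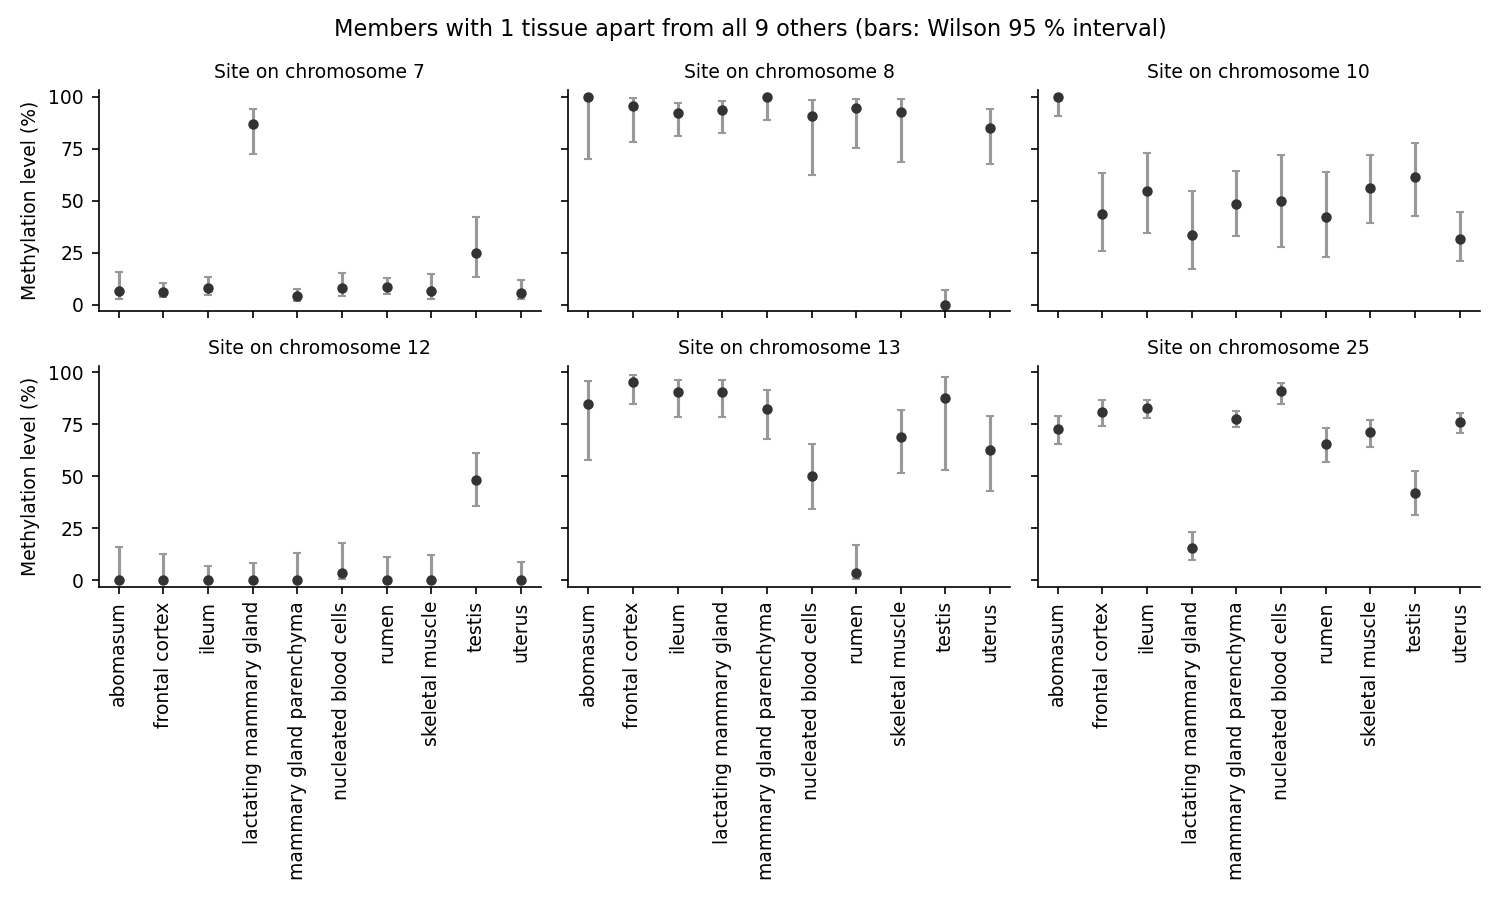
Methylation level (%) in 10 tissues, 1 library each, at the 6 members where 1 tissue was called apart from all 9 others. Bars are Wilson 95 % intervals, and the tissue that stands apart is lactating mammary gland on chromosomes 7 and 25, testis on chromosomes 8 and 12, abomasum on chromosome 10 and rumen on chromosome 13.

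Among members called in any pair and with at least 20 reads in every tissue, the 5 widest ranges between tissues included the sites on chromosomes 7 and 25 just described. Another was chr_defined:4278276 on the reverse strand, at 83.7 % in lactating mammary gland and 8 to 46.4 % elsewhere. At chr25:10743921 on the forward strand, testis (70.3 %) and ileum (59.4 %) stood above the other tissues, which lay between 13.6 and 26.1 %. The fifth, chr25:32365035 on the reverse strand, was at 5.64 % in lactating mammary gland and 21.8 to 57.5 % elsewhere. Lactating mammary gland was the tissue at the end of the range in 4 of these 5.

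The members with the highest mean over the tissues had levels more often seen at CG. At chr15:34039341 on the forward strand, 9 tissues were at 94.0 to 100 % and testis at 37.5 % (6 of 16 reads), while the CG sites within 50 bp averaged 2.65 % over the tissues. Its sequence shows the CG sites within a few bases of the CAC.
chr15:34039329-34039353, forward strand: tgaggctccgccCACagccgggcgg

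The site on chromosome 8 printed above came next. At chr11:107300589 on the reverse strand testis was at 30 % (3 of 10 reads) and the others at 73.9 to 93.3 %. At chr_defined:2897423 on the forward strand the levels ran from 39.1 % in nucleated blood cells to 100 % in frontal cortex and rumen. At chr3:95024589 on the forward strand they ran from 33.3 % in testis to 93.8 % in lactating mammary gland. Testis was thus the lowest tissue at 4 of these 5 sites, with 9 to 50 reads. Sequence differences between the animals were not tested at these sites either.

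The rule that dropped sites at 50 % or more in every tissue passed between sites of much the same kind. The 2 members closest to it were chr5:118012534, at 46.4 to 87.5 %, and chr28:2432044, at 44.4 to 88.1 %. The 2 dropped CAC sites closest to it were chr28:39310131, with a lowest level of 52.9 % in abomasum (9 of 17 reads), and chr28:31993900, with a lowest level of 53.8 % in testis (7 of 13 reads).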

How the data were processed

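RRBS was measured in 10 bovine tissues, 1 library each, grouped by the tissue label. Sex and stage were taken from the study's sample list. Reads were trimmed and placed on build UMD3.1 by the authors with a pipeline built on SOAPaligner, and cytosines with at least 8 uniquely mapped reads were listed. The authors deposited coverage as a count of reads per cytosine without normalization, and the methylation level as a fraction of methylated reads. The highest count was 65535 in every library, so that deeper counts may have been cut off there and the summed reads set too low. A further read number, p-value and FDR in the deposited files were not used. Methylated reads were the level multiplied by the coverage, which was within 0.001 of a whole number at every cytosine.

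The five-base record was reverse complemented for the reverse strand. Means weighted each site equally. Exact sign-flip and exact permutation tests were two-sided, with Benjamini-Hochberg adjustment over 6 and 5 tests. The Fisher calls were tested on simulated data for 20000 cytosines drawn from all contexts. Of 200 sites raised by 60 points in frontal cortex among these, 99.5 % were called in at least 1 pair, 35 % against all 9 tissues, and 4 unchanged sites were called. Named sites were the 5 members each with the widest lead of frontal cortex, the widest range and the highest mean, with at most 1 site per 100 bp. The lead and range lists required at least 20 reads in every tissue, and the range list also a call in at least 1 pair. The 5 leading sites printed first were a further list that required at least 20 reads in frontal cortex only. Also named were the members with 1 tissue called apart from all 9 others, and 2 sites on either side of the 50 % rule. Members, lists and tests were chosen with earlier results of these data known. Alternatives changed the read minimum, weighting, dropped sites, strand, chromosomes, distance to CCGG or CG, windows and thinning. No genome or annotation of UMD3.1 was used. Scripts ran in Python 3.11.15 with SciPy 1.17.1, Numba 0.67.0 for the Fisher tests, NumPy 2.4.6, matplotlib 3.10.9 for plots and pandas 2.3.3.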

Additional observations from a re-analysis of the deposited data

Results flagged for a closer look

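The mean CAC level near CG at 80 % or more stood apart in frontal cortex, at 2.67 %, where the gap to skeletal muscle, the next tissue, took 0.540 of the whole range over the 10 tissues. The tissues are not replicates of one group, and chance alone marks about 5 % of groups in this way. Among 7 measures looked at in the same manner, including the CAC level over all members and the difference between CAC and CAA or CAT, no other had a tissue so far from the rest.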

How the results depend on the processing

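No pairing between samples was possible because each tissue was 1 library and no replicate numbers were shared. The tests over 10 tissues compared groups of sites within each library. Of 72 alternative values of the tests over 10 tissues, 51 kept their direction and side of the 0.05 threshold, 4 lost and 6 gained significance and 11 changed sign. The tests of frontal cortex against 9 cannot pass 0.05, and of 52 alternatives for the 4 of them above 9 of 9, 41 stayed so and 11 did not, 8 of these for the CAC level over all members. The cause was not tested. The alternatives with 20 reads in 9 tissues, with 2 conditions joined, with the same sites in every tissue, without sites above 1000 reads and without sites near CCGG at nearby CG were added after seeing the data. For CAC minus CAA and CAT over the 10 tissues (-0.0355 points), the value was 0.136 weighted by coverage, 0.121 without sites at 50 % in any tissue, 0.0986 without sites at 20 % in every tissue, 0.139 over all sites covered in the tissue, 0.193 for CAA only, 0.274 for CAA only without sites at 50 % in any tissue and 0.0387 with 20 reads and without those sites. It passed the threshold at -0.103 with 10 reads, -0.117 with 20, -0.136 with 20 in the 9 tissues other than abomasum, -0.222 within 100-bp windows and -0.292 for CAT only. The CAC level of frontal cortex minus the 9 others was -0.0823 with 20 reads, -0.0545 with 20 reads and without sites at 50 % in any tissue, and -0.0290 weighted by coverage. With 20 reads in every tissue the difference between CG surroundings was -0.600 at CAC and -0.670 at CAA and CAT, the CAC minus CAA and CAT value near methylated CG was -0.0623, and frontal cortex minus the others near unmethylated CG was -0.422, or -0.000264 with 20 reads in the 9 tissues. CAC minus CAA and CAT near methylated CG (0.284) was 0.243 within 100 bp, 0.185 at the same sites in every tissue, 0.253 without sites near CCGG and 0.131 with 20 reads in the 9 tissues, all no longer past the threshold. The excess of CAC in the CG dependence (0.118) was -0.0665 at the same sites, and 0.241 past the threshold at those without sites at 50 % in any tissue. The 44 called members were 23 with Bonferroni adjustment, 21 with 20 reads and 14 thinned to the lowest coverage. Frontal cortex minus the 9 others near methylated CG kept its sign throughout, from 0.0952 to 1.22 points. Leaving out a replicate was not possible with 1 library per tissue.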
